A study of Homo sapiens with 6 samples.

Results

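The MYC, MAX and MXD network was followed at the transcript level in HEK293 cells, a human line of embryonic kidney origin that carries adenovirus DNA. Its 10 genes were taken by symbol from the 61806 genes of the deposited table: the activators MYC, MYCN and MYCL, the shared partner MAX, the antagonists MXD1, MXI1, MXD3, MXD4 and MNT, and MLX, the partner of a parallel arm. All 10 were found. The rule takes symbols and no measured value, although it was drawn up with earlier results of these data known. The study compared 3 libraries from cells into which the rs16851030 variant of ADORA1, the adenosine A1 receptor gene, was placed with CRISPR and homology-directed repair with 3 libraries from wild-type cells. Both groups grew in the same serum-containing medium, and poly(A) RNA was sequenced from both. The series calls the libraries biological replicates. No source used here says whether the edited cells descend from 1 clone or from many, so the edit and a difference between cell lineages cannot be told apart, and p-values measure the spread between these libraries.

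Proteins of this network carry a basic helix-loop-helix leucine zipper and bind DNA as pairs at the E-box CACGTG. MYC, MYCN and MYCL pair with MAX and recruit acetyltransferase complexes that favour transcription of genes for ribosome assembly, metabolism and growth. The MXD proteins, MXI1 (also called MXD2) and MNT compete for the same partner and the same sites, and bring in the SIN3 corepressor with its histone deacetylases. MLX pairs with the glucose-sensing factors MLXIP and MLXIPL and with some of the antagonists. MYC turns over fast as RNA and as protein, and in human tumours and cell lines its level is a common readout of growth signals. Protein was not measured here.

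Some network genes carry the E-box in their own promoters, which is shown here because the same letters are what the network binds. RefSeq promoter windows of 300 bases (250 before and 50 after the annotated start, build GRCh38.p14) were matched by symbol for 9 members, and MYC was not matched. CACGTG, which reads the same on both strands, was found in the windows of 3 of these 9, MXD4, MNT and MLX, against 8.77% of 27305 genes with a window and 13.0% of the 9167 tested genes with a window. Each line below runs 5′ to 3′ on the strand of the gene and stops before the start, with the E-box in capitals. The stretches lie at chr4:2262312-2262359 on the minus strand for MXD4, chr17:2401218-2401283 on the minus strand for MNT and chr17:42567020-42567085 on the plus strand for MLX.
MXD4: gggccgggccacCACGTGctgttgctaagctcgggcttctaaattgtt
MNT: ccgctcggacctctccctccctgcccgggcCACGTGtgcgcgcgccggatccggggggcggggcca
MLX: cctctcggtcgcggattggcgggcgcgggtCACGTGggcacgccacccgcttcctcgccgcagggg
The first base of the E-box lies 238 bases before the start in MXD4, 193 in MNT and 50 in MLX. The window of MYCN, that of MYCL, those of MAX (2 starts), that of MXD1, those of MXI1 (3 starts) and that of MXD3 did not contain these letters. A match is a description of the sequence and not a measured binding site.

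Levels were read in the deposited FPKM (fragments counted for a gene, scaled by its exon length and the library total). FPKM sets levels of different genes side by side, with 1 exonic length per gene whichever of its transcripts are expressed. That length was 4584 bases for MYC and 6257 for MAX, and its effect on comparisons between genes was not tested. MYC was the most abundant member in both groups. It averaged 73.0 ± 2.72 FPKM in the mutant and 35.3 ± 2.14 FPKM in the wild type (SD, n = 3 each, as for all means below). MLX followed with 17.8 to 20.1 FPKM in the mutant and 18.6 to 19.2 FPKM in the wild type. MAX came next with 16.1 ± 0.381 FPKM in the mutant and 17.4 ± 0.165 FPKM in the wild type. The ranges of MLX and MAX did not overlap in either group. MXI1 and MXD4 were the main antagonist transcripts, and their order differed: MXI1 lay above MXD4 in every mutant library and below it in every wild-type library. MNT, MXD1, MXD3 and MYCL stood between 1.10 and 3.39 FPKM in all libraries. In the mutant, MYCL was the highest of these 4 by its mean, although its range touched that of MNT, and MXD1 and MXD3 overlapped. In the wild type, MYCL was the lowest by its mean, and its range overlapped that of MXD3, as did the range of MXD1 with those of both MNT and MXD3. MYCN was the rarest member, at most 0.27 FPKM in every library.

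**Figure D1:**
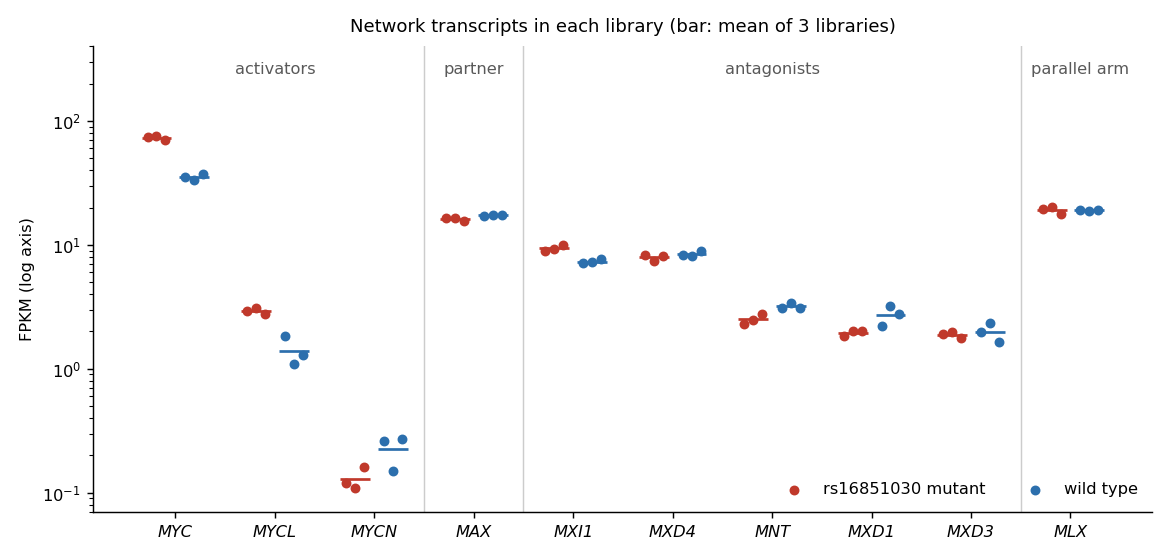
FPKM of each network transcript on a log axis, 1 point per library and a bar at the mean of 3 libraries, with the mutant left of the wild type. The MYC points lie between 70.0 and 75.3 FPKM in the mutant and between 33.2 and 37.5 FPKM in the wild type, and MYCN lies lowest in both groups.

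The activator transcripts were higher in the mutant, apart from the barely detected MYCN. MYC had 73.7, 75.3 and 70.0 FPKM in the mutant and 35.2, 33.2 and 37.5 FPKM in the wild type. Each mutant library lay above each wild-type library. The fold change was 2.02 (95% interval 1.89 to 2.16), or 1.02 on the log2 scale (SE 0.05). With edgeR's quasi-likelihood test over the 12550 genes that averaged at least 1 FPKM, its Benjamini-Hochberg adjusted p was 1.17e-11. In that test 58.1% of all genes passed an adjusted p of 0.05 (29.3% higher and 28.7% lower in the mutant), so a call alone did not set a gene apart. A rise of at least 2-fold was found for 3.55% of tested genes, and MYC ranked 443rd of 12550 by its log2 fold change. Among the 747 tested genes at least as abundant as MYC, 4 had a log2 fold change as large: JUN, the small cytoplasmic RNA RN7SL1, PSAT1 and MYC itself. These were named after their values were seen, and RN7SL1 spread from 42.7 to 165 FPKM within the mutant.

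MYCL, a relative of MYC that is best known from lung cancer and from development, had 2.94, 3.09 and 2.75 FPKM in the mutant and 1.83, 1.10 and 1.28 FPKM in the wild type. The groups did not overlap, and wild-type replicate 1 stood above the other two. They rest on 303, 263 and 223 counts in the mutant and 166, 94 and 115 in the wild type. MYCL rose by 1.02 on the log2 scale (SE 0.15, adjusted p = 1.06e-05, quasi-likelihood test), which is 2.03-fold with a 95% interval of 1.64 to 2.52. Without wild-type replicate 1 the log2 fold change was 1.26. On a log2(FPKM + 1) scale, which compresses low values, it was 0.72, and 0.59 after quantile normalization, and MYCL was called in both.

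MYCN, the relative of MYC that drives many neuroblastomas and is active in neural and kidney progenitors, gave 7, 5 and 7 counts in the mutant and 13, 7 and 13 in the wild type. Its FPKM was 0.12, 0.11 and 0.16 in the mutant and 0.26, 0.15 and 0.27 in the wild type, and the groups overlapped. It was below the expression minimum of the test. In the same fit without that minimum, where 27.3% of 32852 genes were called, its log2 fold change was -0.86 (SE 0.53, 95% interval -1.90 to 0.17) with an adjusted p of 0.248. That fit took its spread almost wholly from all genes together. By exact permutation of the libraries, two-sided and on log2(FPKM + 0.1), p was 0.20, and 0.10 is the smallest value that this design allows. A difference was not detectable at this depth.

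MAX, the partner that all MYC proteins need for DNA binding, was slightly lower in the mutant. It had 16.3, 16.4 and 15.7 FPKM in the mutant and 17.2, 17.4 and 17.5 FPKM in the wild type, without overlap. MAX fell by 0.14 on the log2 scale (SE 0.04, adjusted p = 0.0137, quasi-likelihood test), or to 0.909 of the wild-type level. The call depended on the scaling and on mutant replicate 3. It was lost with library totals as the scaling (log2 fold change -0.10, adjusted p = 0.0523), with quantile normalization (-0.09, adjusted p = 0.0585), among genes with a mean of at least 5 FPKM (-0.09, adjusted p = 0.0677) and without mutant replicate 3 (-0.12, adjusted p = 0.0763).

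The antagonists did not move together. Of the 5, which were all tested, 1 rose, 2 fell and 2 did not pass, with a median log2 fold change of -0.13 against 0.00 for all tested genes. Across the network 9 members were tested. A rise was called for 3 of them, a fall for 3 and neither for 3, and the FPKM of the groups did not overlap for 6, against 62.9% of all tested genes. These shares are near those of all genes, so it is the sizes and directions of single members that describe the network.

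MXI1, a repressor that competes with MYC for MAX, was the antagonist that rose. It had 9.0, 9.21 and 9.95 FPKM in the mutant and 7.10, 7.24 and 7.64 FPKM in the wild type. Every mutant library lay above every wild-type library. The log2 fold change was 0.32 (SE 0.06, adjusted p = 0.00023), or 1.25-fold with a 95% interval of 1.14 to 1.37. MXI1 lies on chromosome 10, where most genes went the other way, as described below.

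MXD1, the founding member of the MXD repressors, which is known to rise as cells leave the cycle and differentiate, fell. It had 1.83, 2.01 and 2.03 FPKM in the mutant and 2.23, 3.20 and 2.78 FPKM in the wild type, without overlap and with wild-type replicate 1 closest to the mutant. The log2 fold change was -0.52 (SE 0.12, adjusted p = 0.00148), which leaves 0.697 of the wild-type level. It was -0.39 without wild-type replicate 2 and -0.65 without wild-type replicate 1, and -0.33 on the log2(FPKM + 1) scale.

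MNT, a large antagonist that most cells express whether they divide or not, also fell. Its values were 2.31, 2.46 and 2.76 FPKM in the mutant and 3.11, 3.39 and 3.08 FPKM in the wild type, again without overlap. The log2 fold change was -0.38 (SE 0.09, adjusted p = 0.000881), or 0.766 of the wild-type level with a 95% interval of 0.676 to 0.868. MNT is 1 of the 3 members with the E-box printed above.

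MXD4 and MXD3 did not pass the test. MXD4, a repressor linked to differentiated cells, had 8.21, 7.46 and 8.10 FPKM in the mutant and 8.31, 8.19 and 8.99 FPKM in the wild type, with overlap. Its log2 fold change was -0.13 (SE 0.06, adjusted p = 0.0662), close to the threshold, and it was called without wild-type replicate 1 (adjusted p = 0.0474) and without the expression minimum (adjusted p = 0.0336). MXD3, which unlike the other MXD genes is linked to proliferating cells in S phase, had 1.92, 1.97 and 1.78 FPKM in the mutant and 1.97, 2.32 and 1.64 FPKM in the wild type. Its log2 fold change was -0.10 with a 95% interval of -0.39 to 0.19 (adjusted p = 0.551), and 0.04 without wild-type replicate 2.

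MLX, the partner of the glucose-sensing factors, showed no detectable difference. It had 19.6, 20.1 and 17.8 FPKM in the mutant and 19.2, 18.6 and 19.2 FPKM in the wild type. The log2 fold change was -0.02 (SE 0.05, adjusted p = 0.799), and the 95% interval of the fold, 0.913 to 1.07, bounds the difference. Its sign turned with the scaling.

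**Figure D2:**
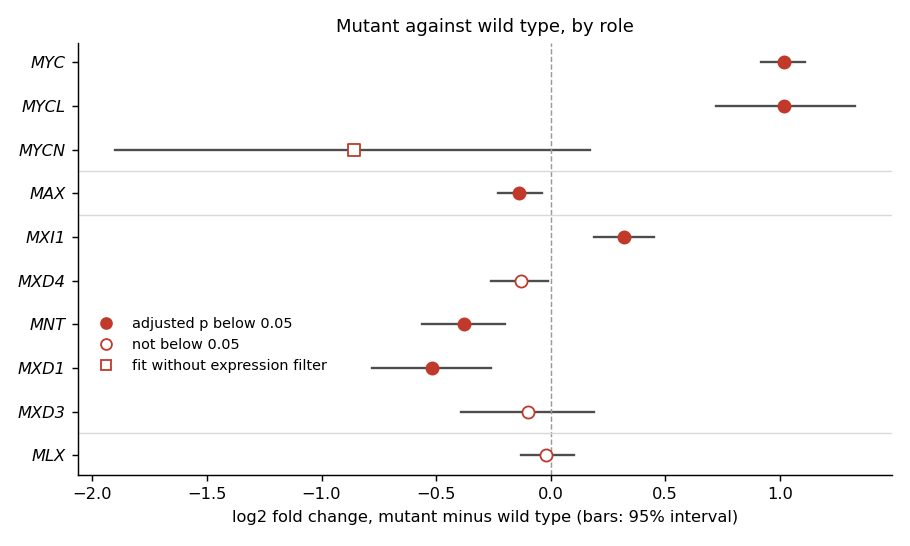
Log2 fold change of each member, mutant minus wild type, with its 95% interval, in order of role. Filled circles mark an adjusted p below 0.05, open circles the others, and the open square MYCN from the fit without the expression minimum. MYC and MYCL share a value of 1.02, whereas the called antagonists lie on both sides of 0.

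Because FPKM is scaled by gene length, levels of the roles could be summed within a library. The 3 activators together came to 76.8, 78.5 and 73.0 FPKM in the mutant and 37.3, 34.5 and 39.1 FPKM in the wild type. MYC alone made up 95.9 to 96.0% of that sum in the mutant and 94.4 to 96.4% in the wild type, so the sum follows MYC. The 5 antagonists together came to 23.3, 23.1 and 24.6 FPKM in the mutant and 22.7, 24.3 and 24.1 FPKM in the wild type, and these groups overlapped. Their mean was 23.7 FPKM in both groups, and MXI1 supplied 38.7 to 40.4% of it in the mutant and 29.7 to 31.7% in the wild type.

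The ratio of activator to antagonist transcripts was 3.30, 3.40 and 2.96 in the mutant and 1.64, 1.42 and 1.62 in the wild type, a ratio of the group means of 2.07. MYC exceeded MAX by 4.52-, 4.59- and 4.46-fold in the mutant and by 2.05-, 1.90- and 2.15-fold in the wild type. These are ratios of transcript levels per length, given as descriptions with no test, and say nothing of the amounts of protein.

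**Figure D3:**
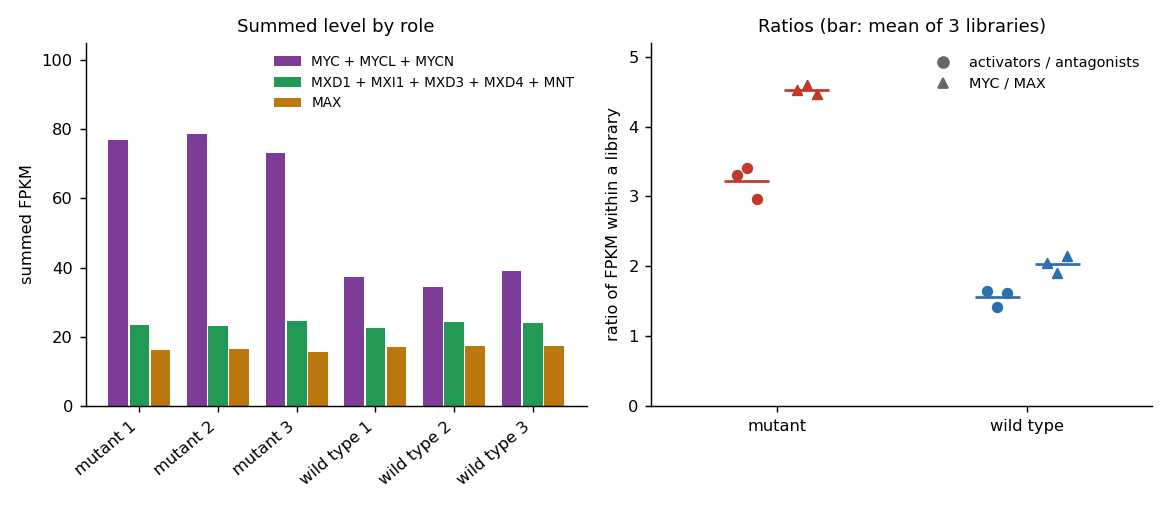
Left, FPKM summed over the activators, over the antagonists and of MAX in each library, on an axis from 0. Right, the ratio of activators to antagonists (circles) and of MYC to MAX (triangles) in each library, with a bar at the mean of 3. The antagonist bars lie between 22.7 and 24.6 FPKM in all libraries, while both ratios are higher in every mutant library than in any wild-type library.

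The members are spread over 8 chromosomes, and the genes beside most of them did not move as they did. For MYC (GRCh38 chromosome 8, 127735434 to 127742951, plus strand) the 10 tested genes on each side had a median log2 fold change of -0.07, with 5 higher and 8 lower of 20, and the other 441 tested genes of chromosome 8 had a median of -0.04. On that chromosome 11 genes other than MYC had a log2 fold change at least as large. The median around MYCL (chromosome 1, 39895426 to 39902256, minus strand) was 0.00 with 10 genes on each side, 0.21 with 5 and -0.05 with 20.

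MXI1 (chromosome 10, 110207605 to 110287365, plus strand) rose where its surroundings were lower. Of the 491 other tested genes of chromosome 10, 43 rose and 320 fell, with a median log2 fold change of -0.36, and the 20 nearest tested genes had a median of -0.28, with 2 higher and 12 lower. MXI1 at 0.32 was reached or passed by 38 genes of that chromosome. The lower level of chromosome 10 as a whole is a feature of these mutant libraries, and its part in the value of MXI1 was not tested. Around MNT (chromosome 17, 2384073 to 2401104, minus strand), 3 of 20 neighbours rose and 9 fell (median -0.13), and around MXD1 (chromosome 2, 69897688 to 69942945, plus strand) 5 rose and 6 fell (median 0.03). For MAX, MXD3, MXD4, MLX and MYCN the medians of the 20 neighbours were -0.05, 0.19, -0.12, 0.19 and 0.17.

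**Figure D4:**
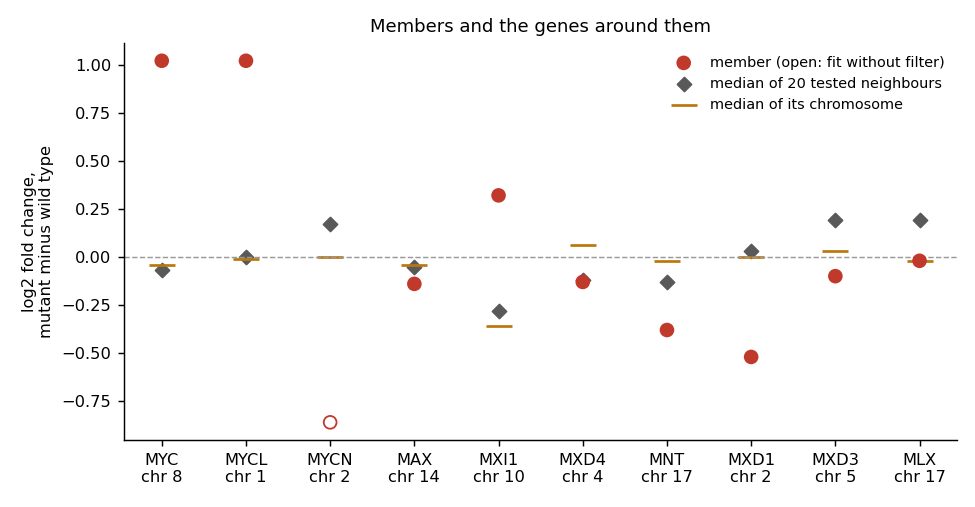
Log2 fold change, mutant minus wild type, of each member (red circles, open for MYCN), of its 20 nearest tested genes (diamonds, median) and of the other tested genes of its chromosome (bars, median). MXI1 at 0.32 stands above both chromosome 10 medians, -0.28 and -0.36, and MYC and MYCL stand apart from medians near 0.

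Some members overlap other genes, with overlap taken from gene start to gene end, introns included. No source used here says whether strand entered the counting, and strand does not separate genes on the same strand. Reads from stretches that both genes share cannot be told apart. MAX overlaps FNTB on the opposite strand, which had 130 to 200 counts in the mutant and 227 to 263 in the wild type. MLX overlaps PSMC3IP on the opposite strand, whose counts came to 26.6% of those of MLX over the 6 libraries. MXD1 overlaps SNRNP27 on the same strand (311% of its counts), and MXD3 overlaps RAB24 on the same strand (197%) and PRELID1 on the opposite strand (1960%). The values of MXD1 and MXD3 are uncertain where reads of these genes were shared. CASC11, opposite MYC, had at most 2 counts in any library, and MYCL-AS1, opposite MYCL, at most 5. MYCNOS, the antisense gene of MYCN, had 5 of its counts in wild-type replicate 2 and at most 1 elsewhere.

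The mean-centred profile of MYC over the 6 libraries (log2 CPM, counts scaled by library size) was compared with those of the other tested protein-coding genes, 10795 in all with MYC. The nearest, by root mean square difference, were NELL2 (0.0448), ULBP2 (0.0472), IL4R (0.0509), ACSF2 (0.0546) and EFHD1 (0.0548). NELL2, a secreted neuronal glycoprotein, had 11.5, 11.3 and 11.4 FPKM in the mutant and 5.67, 5.30 and 6.19 FPKM in the wild type. All 5 were higher in the mutant, by 0.93 to 1.09 on the log2 scale, which follows from their choice by likeness to MYC. They lie on chromosomes 12, 6, 16, 17 and 2, and their likeness rests on 6 libraries that fall into the same groups.

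Of the wider set of partners, MLXIPL rose and MLXIP fell. MLXIPL (ChREBP), a glucose-responsive partner of MLX best known from liver, had 2.98, 2.96 and 3.10 FPKM in the mutant and 1.73, 1.56 and 1.3 FPKM in the wild type, without overlap. The log2 fold change was 0.94 (SE 0.12, adjusted p = 3.22e-06). MLXIP (MondoA), its relative in most other tissues, fell to 6.59 ± 0.287 FPKM in the mutant, against 8.29 ± 0.393 FPKM in the wild type (log2 fold change -0.36, adjusted p = 9.76e-06). MGA, a very large partner of MAX that acts with a Polycomb complex, had a log2 fold change of 0.04 (adjusted p = 0.591).

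Of 12 genes that MLX and its partners are known to induce, 8 were tested, 2 rose, 2 fell and 4 did not pass (median log2 fold change -0.08), shares near those of all tested genes. The arrestin-like genes TXNIP and ARRDC4 are both known targets of MLXIP that restrain glucose uptake, and they parted. ARRDC4 had 9.23, 9.49 and 11.2 FPKM in the mutant and 4.97, 5.75 and 5.05 FPKM in the wild type (log2 fold change 0.89, SE 0.09, adjusted p = 1.51e-07). TXNIP had 5.11, 5.32 and 5.44 FPKM in the mutant and 8.20, 8.77 and 8.36 FPKM in the wild type (log2 fold change -0.71, SE 0.08, adjusted p = 4.93e-07). KLF10, a zinc finger repressor, rose by 0.73, and FASN, the fatty acid synthase, fell by 0.18.

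Genes that MYC is known to induce were more often lower than higher in the mutant. In 4 lists of such targets, 80 genes were tested, 12 rose, 46 fell and 22 did not pass, with a median log2 fold change of -0.18. Of all tested genes 29.3% rose and 28.7% fell, with a median of 0.00. A single gene of the 80 reached a log2 fold change of 1, CCND2, which encodes the G1 cyclin D2. It had 11.2, 9.73 and 10.4 FPKM in the mutant and 5.27, 4.65 and 4.45 FPKM in the wild type (log2 fold change 1.09, SE 0.07, adjusted p = 6.23e-10). The lists were chosen with earlier results of these data known, and no test of them was made.

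Most nucleolar targets, which serve the making of ribosomes, fell. Of 23 tested, 0 rose, 20 fell and 3 did not pass in the quasi-likelihood test (median log2 fold change -0.50), against 29.3% higher and 28.7% lower of all tested genes. The 3 were FBL (-0.02), WDR12 (-0.07) and RCL1 (-0.11), named after their values were seen. RRP12, a ribosome export factor, had 9.25, 8.30 and 8.65 FPKM in the mutant and 16.7, 17.6 and 15.7 FPKM in the wild type (log2 fold change -0.96, SE 0.05, adjusted p = 1.77e-10). PES1, of the complex that processes the large subunit RNA, fell by 0.71, NOLC1, a nucleolar phosphoprotein, by 0.59 and UBTF, the RNA polymerase I factor, by 0.57 on the log2 scale. RRP12 and NOLC1 lie on chromosome 10 and PES1 on chromosome 22, and the counts were repeated without genes of chromosomes 10, 16, 20 and 22, a choice made after seeing the data. Among the 19 remaining list members, 16 fell and 0 rose, with a median of -0.38. RRS1, a ribosome assembly factor on chromosome 8 like MYC, had 31.8, 33.2 and 30.4 FPKM in the mutant and 52.0, 53.5 and 52.3 FPKM in the wild type, and was also named after its values were seen.

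Targets for translation and mitochondria were likewise lower, with 2 of 16 rising (12.5%), 12 falling (75.0%) and 2 not passing (median -0.26). Of all tested genes, 29.3% rose and 28.7% fell. EIF4G1, the scaffold of cap-dependent initiation, fell to 98.8 ± 1.48 FPKM in the mutant, against 132 ± 2.06 FPKM in the wild type (log2 fold change -0.46, adjusted p = 1.03e-08). EIF3B and EIF2S1, initiation factor subunits, fell by 0.44 and 0.31, and TFAM, the mitochondrial DNA packaging factor on chromosome 10, by 0.47. The 2 that rose were EIF4A1 (0.26) and HNRNPA1 (0.21), named after their values were seen. EIF4A1 stood low, at 4.58 ± 0.282 FPKM in the mutant and 3.74 ± 0.215 FPKM in the wild type. Overlap with other genes was examined for the network members alone.

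Of 26 metabolic targets, 8 rose (30.8%), 10 fell (38.5%) and 8 did not pass (median -0.01), against 29.3% higher and 28.7% lower of all tested genes. SHMT2, the mitochondrial enzyme that passes serine carbon to folate, had 67.0, 66.3 and 64.6 FPKM in the mutant and 43.0, 41.3 and 40.6 FPKM in the wild type (log2 fold change 0.63, SE 0.04, adjusted p = 7.69e-10). SLC7A5, an amino acid transporter encoded on chromosome 16, rose by 0.59. ODC1, the first enzyme of polyamine synthesis and a classic MYC target, had 94.1, 95.6 and 93.2 FPKM in the mutant and 135, 131 and 134 FPKM in the wild type (log2 fold change -0.53, SE 0.04, adjusted p = 2.14e-09). SRM, the next enzyme of that pathway, fell by 0.61. With quantile normalization 13 of the 26 rose.

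Most cell cycle targets did not pass the test. Of 15, 2 rose (CCND2, above, and TERT, at 0.36), 4 fell and 9 did not pass (median -0.04). That is 13.3% higher and 26.7% lower, against 29.3% and 28.7% of all tested genes. MCM5, a replicative helicase subunit on chromosome 22, fell by 0.46, ID2, an inhibitor of differentiation factors, by 0.50 and BUB1B, a spindle checkpoint kinase, by 0.22 on the log2 scale. CDK4, a partner of the D cyclins, had a log2 fold change of -0.04 (adjusted p = 0.433). TERT and CDK4 were named after their values were seen. Without wild-type replicate 2, 1 of the 15 rose, and without wild-type replicate 1, 3 did.

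Of 18 genes that MYC is known to repress, 14 were tested, 4 rose (28.6%), 5 fell (35.7%) and 5 did not pass (median -0.03). These shares are near the 29.3% and 28.7% of all tested genes. NDRG1, a stress and differentiation gene on chromosome 8, rose to 7.99 ± 0.546 FPKM in the mutant, against 4.73 ± 0.372 FPKM in the wild type (log2 fold change 0.72, adjusted p = 3.79e-08). GAS1, a growth arrest gene, fell by 0.71, CDKN2B, an inhibitor of CDK4 and CDK6, by 0.81, and CLU, the chaperone clusterin, by 1.21, with wild-type CLU spread widely (3.25 ± 1.44 FPKM). Among genes with a mean of at least 5 FPKM, 4 of the list rose and 2 fell (median 0.31), and without any minimum 6 rose and 5 fell (median 0.04).

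Cofactors of both arms of the network were measured. Of 20 MYC coactivators, 3 rose, 11 fell and 6 did not pass (median -0.15). Falls were more frequent here than among all tested genes, of which 29.3% rose and 28.7% fell. KAT2A, the acetyltransferase GCN5, fell to 27.3 ± 0.694 FPKM in the mutant, against 37.8 ± 0.376 FPKM in the wild type (log2 fold change -0.50, adjusted p = 2.88e-08). The elongation factor genes SUPT5H and PAF1 fell by 0.44 and 0.43, and the acetyltransferase EP300, on chromosome 22, by 0.48. Among 18 corepressor genes of the SIN3 and histone deacetylase complexes, 5 rose (27.8%), 6 fell (33.3%) and 7 did not pass (median -0.08). These corepressor shares are near those of all tested genes. BRMS1, a subunit of the SIN3 complex, had 13.1, 13.0 and 14.4 FPKM in the mutant and 22.3, 25.9 and 26.1 FPKM in the wild type (log2 fold change -0.91, SE 0.07, adjusted p = 1.03e-08). SAP30 fell by 0.53 and SIN3B by 0.27, whereas ARID4A rose by 0.36.

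Of 21 genes that set the stability of the MYC protein, 2 rose, 12 fell and 7 did not pass (median -0.16). Of all tested genes, 29.3% rose and 28.7% fell. Without the chromosomes left out for the nucleolar list, a choice made after seeing the data, 15 genes remained. Among these 15, 2 rose and 8 fell (median -0.15). FBXW7, the ubiquitin ligase subunit that marks phosphorylated MYC for breakdown, had 3.58, 3.41 and 3.33 FPKM in the mutant and 3.98, 4.16 and 4.16 FPKM in the wild type (log2 fold change -0.28, adjusted p = 0.000841). BTRC, another ligase subunit, on chromosome 10, fell by 0.48, and USP36, a nucleolar deubiquitinase that protects MYC, by 0.45. AURKA, a mitotic kinase that stabilizes MYCN, on chromosome 20, fell by 0.30, and SET, an inhibitor of the phosphatase PP2A, by 0.22. The 2 that rose were HUWE1, a ubiquitin ligase (0.37), and USP28, a deubiquitinase that acts with FBXW7 (0.30), which like FBXW7 were named after their values were seen. FBXW7, which favours MYC breakdown, and USP36, which opposes it, both fell.

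The E-box was also counted across the promoters of tested genes. Of 1196 tested genes with CACGTG in a window, 325 (27.2%) rose and 429 (35.9%) fell, with a median log2 fold change of -0.04. Of 7971 tested genes whose windows lacked it, 2524 (31.7%) rose and 2396 (30.1%) fell, with a median of 0.00. The lists were counted over those of their genes with a window, whether or not these were tested. The E-box was found for 13.0% of tested genes with a window and 8.77% of all genes with one. It was found for 8 of 17 nucleolar targets (47.1%) and 10 of 23 metabolic targets (43.5%). Among cell cycle targets it was 4 of 12 (33.3%), and among translation targets 4 of 15 (26.7%). Turnover genes had it for 5 of 17 (29.4%), repressed genes for 3 of 12 (25%) and MLX targets for 2 of 9 (22.2%). Coactivators had it for 3 of 14 (21.4%), corepressors for 1 of 16 (6.25%) and the wider partners for 0 of 3. These are descriptions of the letters in a fixed window, and no test was made.

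The libraries held 16013460 to 20349609 counts, and the members other than MYCN had 94 to 6877 counts per library, so counting error was small for MYC and larger for MYCL, MXD1 and MXD3. Of 10 genes taken as markers of HEK293 cells, 8 reached the expression minimum and 2, KRT8 and PAX2, did not. Summed over the 10, the level was 150 to 154 FPKM in the mutant and 204 to 236 FPKM in the wild type, and most of that sum was VIM, on chromosome 10, at 87.4 ± 1.13 FPKM in the mutant and 153 ± 11.6 FPKM in the wild type. Of the 8 tested markers, 2 rose (NEFL at 0.45 and EYA1 at 0.38 on the log2 scale), 5 fell and 1 did not pass. In the fit without the minimum KRT8 (1.07) and PAX2 (1.17) were higher in the mutant. None of 9 markers of differentiated kidney epithelium reached the minimum. Of 15 markers of blood, vessel, fibroblast, skin and liver cells, 1 did, COL1A1, and CD3E, HBB and HBG1 had 0 counts in every library, with sums over the 15 of 7.33 to 7.87 FPKM in the mutant and 4.25 to 4.36 FPKM in the wild type. Their part in the values of the network was not tested, and in bulk RNA fewer cells of a type and less RNA per cell cannot be told apart.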

How the data were processed

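Each library had, in the deposited table, whole-number counts and FPKM columns named in the file headers. The submitters' processing notes list cutadapt, HISAT2 2.0.1, HTSeq and GRCh38; neither annotation release nor strand setting is given in the sources used here. Exonic gene length, as deposited and recorded as a score, served only to recompute FPKM. Recomputed and deposited FPKM matched within 0.005. The 12550 genes averaging 1 FPKM or more were scaled by TMM. They were tested with edgeR 4.0.16 (quasi-likelihood, two-sided, genotype alone, Benjamini-Hochberg adjustment over all of them). The edgeR step was checked on simulated counts in which few genes changed, as many up as down. In the data 58.1% of genes were called, a setting that this check did not cover. Alternatives used limma 3.58.1, DESeq2 1.42.0, other scalings and filters, replicate blocks, and omission of single libraries. No libraries were duplicates (chi-square per degree of freedom of at least 2.28 within a group). The text names all members, up to 4 called genes per list by smallest adjusted p, and the 5 nearest profiles of MYC. Members and lists were chosen with earlier results of these data known. Promoters came from RefSeq tables.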

Additional observations from a re-analysis of the deposited data

How the results depend on the processing

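MYC, MYCL, MXI1, MXD1 and MNT kept their direction and their call under every alternative run for them, 15 or 16 each. Their log2 fold changes ran from 0.98 to 1.10 for MYC, 0.59 to 1.26 for MYCL, 0.28 to 0.37 for MXI1, -0.65 to -0.33 for MXD1 and -0.46 to -0.26 for MNT. MYCN was called in none of its 14 (-1.08 to -0.12, adjusted p = 0.107 to 0.471). MAX lost its call with library totals (-0.10), quantile normalization (-0.09) and a minimum of 5 FPKM (-0.09), and ran from -0.18 to -0.09, with -0.12 without mutant replicate 3. MXD4 was called without an expression minimum (-0.17) and without wild-type replicate 1 (-0.15). MLX changed sign, within its error, with library totals (0.02), limma at either pseudocount (0.01), quantile normalization (0.04), the minimum of 5 FPKM (0.03) and without mutant replicate 3 (0.03), as did MXD3 without wild-type replicate 2 (0.04). The cause was not tested. Over all single-library omissions the lowest values were -0.06 for MLX, -0.22 for MXD3 and -0.16 for MXD4. A minimum of 5 FPKM removed MXD1, MNT, MXD3 and MYCL from the test, and MAX was no longer called, so 0 members fell there. With fewer genes tested, that minimum gave 2285 higher and 2315 lower genes of all, 0 of the wider partners rising, 2 repressed targets falling and 1 translation target rising. Without any minimum, 1 coactivator, 3 corepressors and 1 translation target rose. With quantile normalization 13 metabolic and 4 turnover genes rose, 1 translation target rose and 1 MLX target fell. Leaving out libraries gave 2 to 4 MLX targets falling, 3 to 5 corepressors, 1 to 3 cell cycle targets and 1 to 2 translation targets rising. Same-numbered libraries shared only a number and did not deviate together (correlations -0.008, -0.028 and -0.002). With a replicate block, log2 fold changes were 1.02 for MYC and 0.32 for MXI1, and no member's call changed. Of the called genes, 50.5% were higher with TMM and 56.2% with library totals. Scaling factors from genes outside chromosomes 10, 16, 20 and 22, and lists without those genes, were added after seeing the data. Depth limits MYCN, with 5 to 13 counts per library.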
